A study of Mus musculus with 2 samples.

Results

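GABA neurons with the PVH hashtag were taken from a single-nucleus RNA sequencing experiment on NeuN-sorted nuclei of the mouse hypothalamus. They were chosen as nuclei whose hashtag counts lay on the PVH side, with a transcript of at least 2 of the GABA genes Slc32a1, Gad1 and Gad2 and no transcript of Sim1 or Slc17a6. There were 569 such nuclei, which was 15.2% (14.1 to 16.4%) of the 3743 nuclei on the PVH side, 5.59% of the 10170 nuclei that passed the quality filters and a part of the 11409 columns in the matrix. Counts are of UMIs (unique molecular identifiers), so that copies of 1 captured molecule are counted 1 time. Levels are UMIs of a gene per 1000000 UMIs of a group (CPM), and every interval in brackets is an exact 95% interval that covers counting error only.

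The nuclei came from untreated male wild-type C57BL/6J mice aged 10 to 12 weeks, pooled, stained for the neuronal nuclear protein NeuN, sorted and captured with 10x Genomics v3 chemistry. The labels describe the tissue as hypothalamic arcuate nucleus (ARC) alone, while the deposited feature list holds 2 hashtags, named ARC and PVH, which are barcoded antibodies against nuclear pores that mark the nuclei of 1 preparation. The sources used here do not say how the tissue behind the PVH hashtag was dissected, and neither hashtag tells which mouse a nucleus came from. All nuclei are therefore 1 sample without replicates, and no test was made.

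GABA neurons inhibit the cells they contact. They make GABA from glutamate with the enzymes encoded by Gad1 and Gad2 and load it into vesicles with the transporter encoded by Slc32a1, whereas Slc17a6 loads glutamate and marks most excitatory neurons of the hypothalamus. Sim1 is a transcription factor that the glutamate neurons of the paraventricular nucleus need in development, and the GABA neurons of the forebrain are specified by other factors, among them the homeobox proteins of the Dlx family.

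The hashtag limit for the PVH side was ARC UMIs at or below 0.5 times PVH UMIs. The median ratio was 0.377 in the GABA neurons, with a median of 46 ARC and 126 PVH hashtag UMIs, so that both hashtags were present in most nuclei. The 745 ARC-side nuclei that met the same gene terms, at a ratio of 0.8 or more, had a median ratio of 1.28. HTODemux, which assigns nuclei from the same hashtag counts with another threshold, called 448 of the 569 nuclei PVH (78.7%), 0 ARC, 25 doublets of both hashtags and 96 negative. The ARC side can hold nuclei that carry both hashtags, because its limit lies below a ratio of 1, and no doublet caller was run.

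Depth was similar between the groups. The GABA neurons summed to 3122088 UMIs, and the median nucleus had 4926 UMIs and 2692 genes. The ARC-side GABA neurons summed to 4239870 UMIs, with 5200 UMIs and 2810 genes in the median nucleus, and the other 3174 PVH-side nuclei to 16183795 UMIs, with 4794.5 UMIs and 2598.5 genes. The share of mitochondrial UMIs moved with the hashtag side. It was 0.0462% in the GABA neurons, 0.0422% in the other PVH-side nuclei and 0.0234% in the ARC-side GABA neurons, and its part in the comparison of the sides was not tested.

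The neuronal label held against the markers. All 569 nuclei had a UMI of at least 1 of 6 neuronal markers and 518 had 3 or more of them, while 3 or more markers of any non-neuronal class were seen in 0 to 2 nuclei. The summed levels of the oligodendrocyte, microglia and astrocyte markers were 88.7, 105 and 45.5 CPM, against 86.6, 134 and 31.1 in the ARC-side GABA neurons and 106, 120 and 44.4 in the other PVH-side nuclei. Snap25, a protein of synaptic vesicle release, was at 687 CPM (659 to 717) against 716 in the ARC-side GABA neurons. The library also held 141 nuclei with non-neuronal markers, chosen in part for having few neuronal markers, which are called the non-neuronal nuclei. The GABA label rests on the rule itself. Of the 569 nuclei, 254 had Gad1 and Gad2 only, 163 Slc32a1 and Gad2 only, 47 Slc32a1 and Gad1 only, and 105 (18.5%) all 3 genes.

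The 3 gate genes are described here without any test, since they chose the nuclei. Slc32a1 was at 122 CPM (110 to 135) in 315 nuclei, against 102 in the ARC-side GABA neurons and 20.5 in the other PVH-side nuclei. Gad1 was at 173 CPM (159 to 189) in 406 nuclei, against 175 and 24.04. Gad2 was at 311 CPM (291 to 331) in 522 nuclei, against 274 and 94.8. Against the ARC-side GABA neurons, the interval of the ratio lay wholly above 1 for Slc32a1 and Gad2 and spanned 1 for Gad1. The same gate chose the nuclei on both hashtag sides by these genes, so no likeness of the sides is read from their levels. Gad1os, an RNA antisense to Gad1, was at 18.9 CPM against 6.43 in the other PVH-side nuclei, and reads of the overlapping genes may not be separable. The glutamate transporter genes that the rule did not use were near 0, with 1 UMI of Slc17a7 and 5 UMIs of Slc17a8 in all 569 nuclei.

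The Dlx genes followed the GABA gate. Dlx6os1 (Evf2), an RNA transcribed from the strand opposite Dlx6 (chr6:6820189-6871592, minus strand, GRCm38), was detected in 284 of the 569 nuclei (49.9%) at 192 CPM (177 to 209). Its level was 64.9 CPM (61.1 to 69.0) in the other PVH-side nuclei, a ratio of 2.96 (2.68 to 3.28), and 2.19 CPM in the non-neuronal nuclei. Dlx1 was at 27.2 against 10.9 CPM (ratio 2.50, 1.91 to 3.26), Dlx2 at 8.97 against 4.39, Dlx5 at 10.2 against 4.39 and Dlx6 at 9.29 against 3.03. All of these homeobox genes of GABA neuron development were at least 2-fold higher than in the rest of the PVH side. Dlx6 and Dlx6os1 overlap on opposite strands, so their reads may not be fully separable.

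The promoter of Dlx6os1 is shown because this gene had the most UMIs of the Dlx locus genes measured and because Dlx and many other homeodomain proteins bind TAATTA. The sequence is from RefSeq on GRCm38.p6, covers 250 bases before and 50 after a start of Dlx6os1, is read on the minus strand, and has the TAATTA matches in capitals. The gene was chosen after the values were seen.
Dlx6os1 promoter, chr6:6869484-6869783: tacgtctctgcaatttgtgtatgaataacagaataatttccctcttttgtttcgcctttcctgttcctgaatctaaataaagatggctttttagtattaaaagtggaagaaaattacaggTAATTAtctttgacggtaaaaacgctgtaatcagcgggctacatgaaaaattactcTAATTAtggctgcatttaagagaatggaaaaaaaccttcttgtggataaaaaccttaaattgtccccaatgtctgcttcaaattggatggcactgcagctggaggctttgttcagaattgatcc
TAATTA reads the same on both strands. It occurs 2 times in this window and 1 time in the window of another Dlx6os1 start, and in 1738 of 32851 promoters of the same length in the table (5.29%). The windows of Dlx1, Meis2 and Nr2f2 held none. A match is a stretch of letters and not a measured site.

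The number of gate genes seen in a nucleus gave a graded readout that could be set beside genes the rule did not use. Among PVH-side nuclei without Sim1 or Slc17a6 UMIs, 722 had none of the 3 gate genes, 844 had 1, 464 had 2 and 105 had 3. Dlx6os1 was at 78.3 CPM (68.7 to 88.9) with 0 gate genes, 150 (139 to 163) with 1, 195 (178 to 214) with 2 and 181 (149 to 217) with 3. The 844 nuclei just outside the gate were therefore closer in Dlx6os1 to the nuclei just inside it than to those with no gate gene. Dlx1 went from 11.8 to 21.9, 27.3 and 26.7 CPM over the same steps. On the ARC side Dlx6os1 went from 50.2 to 75.5, 86.2 and 100 CPM and was lower than on the PVH side at each step. A deeper nucleus is more likely to show a gate gene, and CPM does not remove which nuclei that selects.

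**Figure D1:**
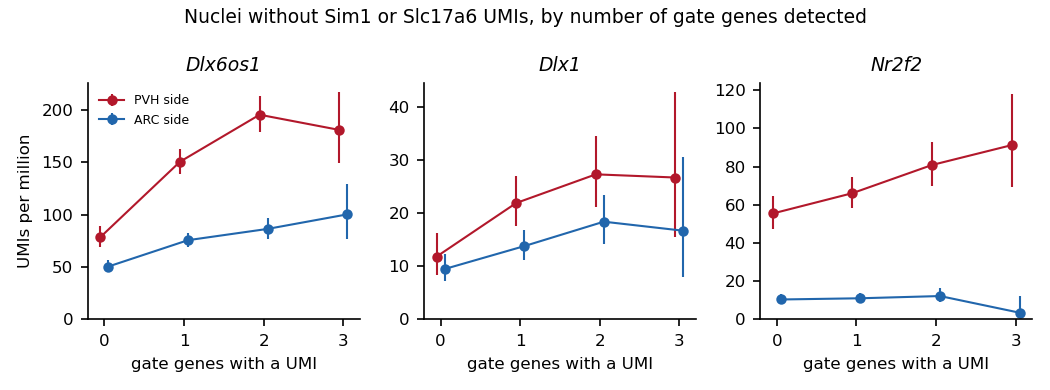
Levels of Dlx6os1, Dlx1 and Nr2f2 (UMIs per 1000000 UMIs, linear axes from 0) in nuclei without Sim1 or Slc17a6 UMIs, by how many of Slc32a1, Gad1 and Gad2 had a UMI (0 to 3). Red points are PVH-side and blue points ARC-side nuclei, and bars are exact 95% Poisson intervals. Dlx6os1 went from 78.3 to 181 CPM on the PVH side and from 50.2 to 100 on the ARC side, while Nr2f2 stayed at or below 12.1 CPM on the ARC side at all 4 steps. The genes were picked after their values were seen.

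Against the ARC-side GABA neurons, the question was which genes set apart nuclei of the same transmitter class with different hashtags. Of 11710 genes with at least 50 UMIs in both groups together, 173 (1.48%) were 2-fold or more higher in the PVH-side GABA neurons and 193 (1.65%) were 2-fold or more lower, 3.13% in all, and in 64 (0.547%) and 58 (0.495%) of them the whole interval lay past 2-fold. The median log2 ratio over all genes was -0.04. The higher named genes included the transcription factors Meis2, Nr2f2, Nr2f1, Zeb2, Zic1, Ebf1 and Lef1, and the lower ones Tbx3 and Acvr1c.

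Meis2, a homeobox transcription factor (chr2:115863064-116065839, minus strand, GRCm38), stood first. It had 299 UMIs in 69 of the 569 nuclei, at 95.8 CPM (85.2 to 107), against 26 UMIs at 6.13 CPM (4.01 to 8.99) in the ARC-side GABA neurons, a ratio of 15.6 (10.4 to 24.3). The ratio came to 3.55 with all 3 gate genes required, on 49 and 13 UMIs, and to 34.5 with stricter hashtag ratios (at most 0.25 and at least 2), on 58 and 2 UMIs. With nuclei thinned to 1000 UMIs it was 4.83 on 4 and 1 UMIs. A single nucleus held 18 of the UMIs. The level was 41.2 CPM in the other PVH-side nuclei, a ratio of 2.32 (2.02 to 2.67) between the GABA neurons and the rest of their own side. That ratio lay between 1.497 when thinned and 4.68 with at least 1 gate gene, settings that also move nuclei between these groups. It does not make Meis2 particular to the gated nuclei. Among PVH-side nuclei without Sim1 or Slc17a6 UMIs, Meis2 was at 46.9, 103, 101 and 77.1 CPM with 0, 1, 2 and 3 gate genes. The 844 nuclei with 1 gate gene, just outside the gate, were thus as high as the GABA neurons. Meis2 was seen in few of the 569 nuclei, at many UMIs each.

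Nr2f2 (COUP-TFII), an orphan nuclear receptor of the ventral forebrain (chr7:70351944-70366735, minus strand), was seen more widely. It was in 171 nuclei (30.1%) at 83.0 CPM (73.2 to 93.7), against 10.8 (7.94 to 14.5) on the ARC side, a ratio of 7.65 (5.57 to 10.7). The other PVH-side nuclei were at 45.1 CPM. Its relative Nr2f1 was at 20.2 against 2.59 CPM (ratio 7.78, 4.06 to 16.4) and at 20.7 in the other PVH-side nuclei. Both COUP-TF genes were therefore high on the PVH side in general, and Nr2f2 was 1.84 times (1.59 to 2.12) higher in the GABA neurons than in the rest of that side.

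Other transcription factors showed the same contrast between the sides. Zic1, a zinc finger factor, was at 26.9 against 4.01 CPM (ratio 6.71, 3.95 to 12.1) and its neighbour Zic4, which overlaps it on the opposite strand, at 16.7 against 3.30. Zeb2, a zinc finger repressor that cortical GABA neurons need in migration, was at 51.6 against 6.84 CPM, and was far higher in the non-neuronal nuclei, at 783. Lef1, a factor of Wnt signalling, was at 16.0 against 2.83 CPM. Ebf1, a helix-loop-helix factor, was at 42.3 against 7.08 CPM, but its 132 UMIs came from 19 nuclei and 28 of them from 1 nucleus. In the other PVH-side nuclei Zic1 was at 21.8 CPM, Zic4 at 20.6, Nr2f1 at 20.7, Ebf1 at 92.6 and Zeb2 at 76.8, all above the ARC side.

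Among the 33 measured genes of a list of GABA lineage transcription factors, 8 were 2-fold or more higher than on the ARC side and 1 was lower, with a median log2 ratio of 0.27. Among the higher ones were Dlx6os1, Meis2, Zic1, Zic4, Nr2f1, Nr2f2 and Ebf1, and the lower one was Nkx2-1, a homeobox factor of the ventral hypothalamus, at 4.80 against 13.2 CPM. Dlx6os1 was at 192 against 88.2 CPM (ratio 2.18, 1.91 to 2.49), and with nuclei thinned to 1000 UMIs it rested on 9 and 12 UMIs at a ratio of 0.906. The median of this list lay above the median of all genes, and Dlx1, Dlx2, Dlx5 and Dlx6 themselves were within 2-fold of the ARC side. Of all genes tested, 1.48% were 2-fold or more higher and 1.65% lower.

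RNAs other than transcription factors were also higher. Adarb2, which encodes an RNA-binding relative of the editing enzymes (chr13:8202866-8768747, plus strand), was in 231 nuclei at 560 CPM (534 to 586) against 125 (114 to 136), a ratio of 4.49 (4.07 to 4.96), and was at 616 CPM in the other PVH-side nuclei. Sox2ot, a long RNA that overlaps Sox2 (chr3:34104270-34682619, plus strand), was at 633 against 106 CPM, and the non-neuronal nuclei had 1098. Mir124-2hg, the host RNA of a copy of the neuronal miR-124, was at 80.4 against 17.9 CPM. Fign, a microtubule-severing enzyme, and Cdh20, a cadherin, were at 75.6 and 42.9 CPM against 17.5 and 8.49. Fbxw13, Abcb5 and Nostrin complete the 15 highest named genes, at 12.2, 9.61 and 13.5 CPM, with 2, 2 and 5 UMIs in all on the ARC side. With all 3 gate genes required, the ratios of Abcb5 and Nostrin came to 1.89 and 1.57.

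**Figure D2:**
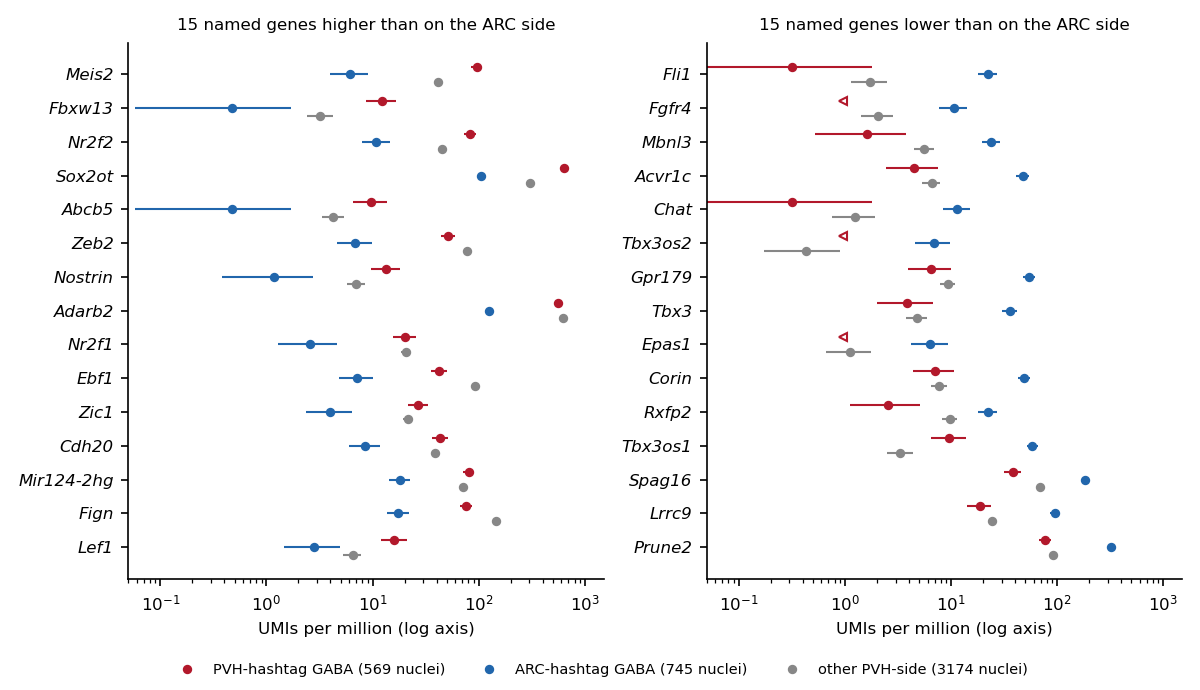
Levels (UMIs per 1000000 UMIs, log axis) of the 15 named genes highest and the 15 lowest in the PVH-hashtag GABA neurons (red) against the ARC-hashtag GABA neurons (blue), with the other PVH-side nuclei in grey. Points are levels of summed UMIs, whiskers are exact 95% Poisson intervals, which end at the left edge where they run past it, and an open triangle marks the level of 3 UMIs for a group with 0. Meis2 was at 95.8 against 6.13 CPM and Tbx3 at 3.84 against 35.9 CPM, and the grey points of most genes lie nearer to red than to blue.

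The genes that were lower than on the ARC side included Tbx3 and its neighbours. Tbx3, a T-box factor that arcuate neurons need to keep their identity (chr5:119670669-119684724, plus strand), had 12 UMIs at 3.84 CPM (1.99 to 6.71) against 152 UMIs at 35.9 CPM (30.4 to 42.02), 9.33-fold lower (5.19 to 18.5). Its antisense neighbour Tbx3os1, which overlaps it, was at 9.61 against 58.5 CPM, and Tbx3os2 had 0 against 29 UMIs, at least 7.12-fold lower at a floor of 3 UMIs over the group. Acvr1c, an activin receptor (chr2:58267453-58357895, minus strand), was at 4.48 CPM (2.45 to 7.52) against 47.2 (40.9 to 54.2), 10.5-fold lower (6.12 to 19.6). Corin, a serine protease that processes natriuretic peptides, was at 7.05 against 48.8 CPM. For Tbx3, Acvr1c and Corin the other PVH-side nuclei were as low, at 4.76, 6.55 and 7.72 CPM.

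Several of the 15 lowest named genes were close to 0. Chat, which encodes the enzyme that makes acetylcholine, had 1 UMI in the 569 nuclei and 48 in the 745 ARC-side nuclei. Fli1, an ETS transcription factor, had 1 against 94 UMIs. Fgfr4, a receptor of fibroblast growth factors, had 0 against 45 UMIs, at least 11.0-fold lower at the same floor, and Epas1, a factor of the response to low oxygen, 0 against 27, at least 6.63-fold lower. Mbnl3, a splicing factor, was at 1.60 against 23.8 CPM and Rxfp2, a receptor of the relaxin family, at 2.56 against 22.2. The remaining genes of the 15 lowest, Gpr179, Spag16, Lrrc9 and Prune2, were at 6.41, 38.1, 18.6 and 76.9 CPM against 54.2, 182, 95.05 and 322.

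Of the 18 measured arcuate identity genes, 0 were 2-fold higher and 7 were 2-fold lower than on the ARC side, with a median log2 ratio of -0.85. The 7 were Tbx3, Ghr, Lepr, Esr1, Otp, Corin and Acvr1c. Intervals lay wholly below a ratio of 1 for 16 of the 18, against 1565 of 11707 genes tested. Over all genes, 1.65% were 2-fold or more lower. The list was chosen with earlier results of these data known, and Tbx3, Corin and Acvr1c are also among the 15 lowest named genes. Its counts are therefore a description. Lepr, the leptin receptor, was at 10.6 CPM (7.28 to 14.8) against 49.3 (42.8 to 56.4), and Ghr, the growth hormone receptor, at 158 (144 to 172) against 480 (460 to 502). Esr1, the oestrogen receptor alpha, was at 49.0 against 109 CPM and Otp, a homeobox factor, at 5.45 against 27.1. In the same nuclei Isl1, a homeobox factor of many hypothalamic GABA neurons, was at 83.9 CPM (74.1 to 94.7) in 163 nuclei, against 142 on the ARC side and 36.0 in the other PVH-side nuclei.

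The contrast between the sides was also laid out along the hashtag ratio, which is a description because the ratio chose the sides. Over 8 steps of the ratio in nuclei that passed the gene terms, Meis2 was at 101, 93.8 and 95.2 CPM in the 3 steps up to 0.5, at 60.6 and 96.6 in the 2 steps between the limits, and at 8.61, 5.15 and 2.97 in the 3 steps from 0.8. Tbx3 was at 3.48, 4.51 and 3.47 CPM, then 11.4 and 29.0, then 33.8, 33.0 and 49.1. Adarb2 was at 449, 567 and 598 CPM, then 301 and 328, then 159, 110 and 83.3. For Meis2 and Tbx3, the nuclei just inside the PVH limit thus had levels like those far inside it. The 291 nuclei of the last step up to 0.5 and the 186 nuclei at 0.5 to 0.65 stood at 5.56 and 25.1 CPM in Acvr1c and at 144 and 145 CPM in Ghr. The median depth of the 76 nuclei at or below 0.25 was 7637.5 UMIs and that of the 202 nuclei of the next step 5090.5.

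**Figure D3:**
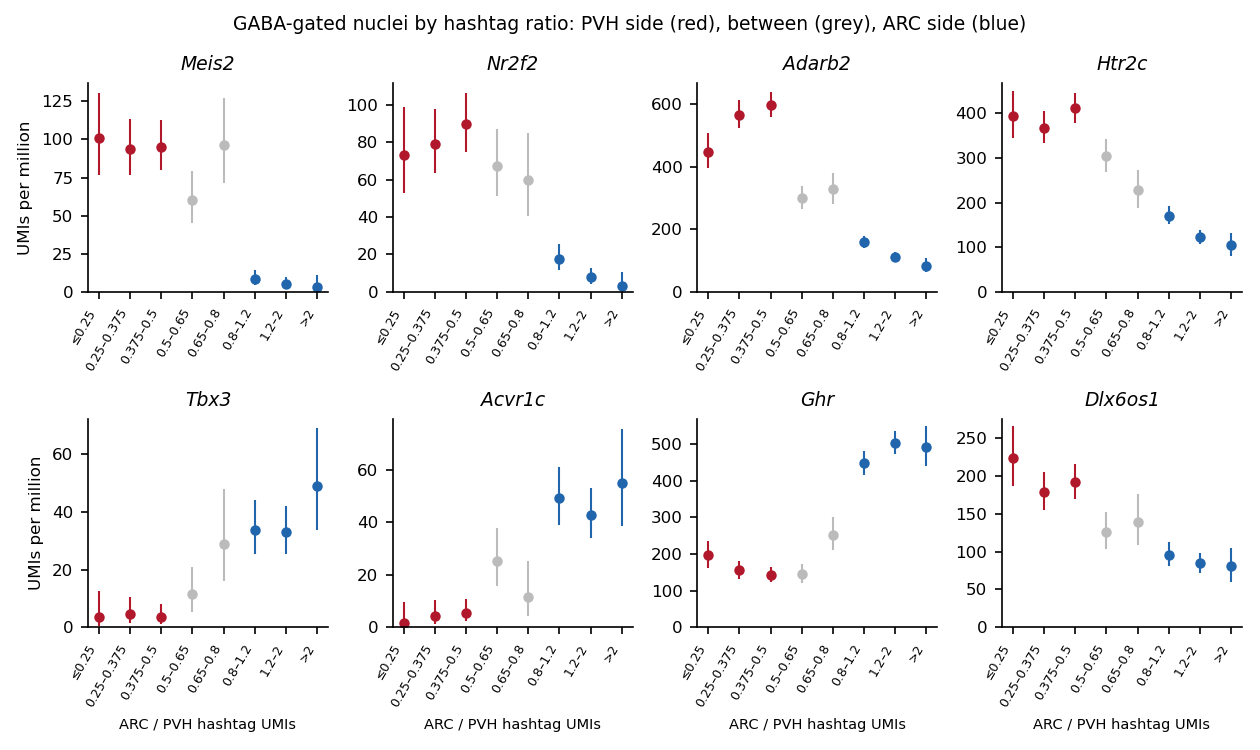
Levels (UMIs per 1000000 UMIs, linear axes from 0) of 8 genes in nuclei that met the gene terms, by the ratio of ARC to PVH hashtag UMIs. Red points are the PVH side, grey points nuclei between the limits and blue points the ARC side, and bars are exact 95% Poisson intervals. Meis2 lay at 93.8 to 101 CPM on the PVH side and at 2.97 to 8.61 on the ARC side, and Tbx3 at 3.47 to 4.51 against 33.0 to 49.1. The genes were picked after their values were seen.

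Some receptors of monoamines were higher on the PVH side. Htr2c, a serotonin receptor that excites the neurons carrying it (chrX:146962513-147197277, plus strand), was in 302 of the 569 nuclei at 393 CPM (372 to 416), against 138 (127 to 150) in the ARC-side GABA neurons and 319 in the other PVH-side nuclei. Htr7, another serotonin receptor, was at 76.9 against 34.9 CPM, Adra1b, an adrenergic receptor, at 20.5 against 5.19, and Cnr1, the cannabinoid receptor, at 27.9 against 10.4. These were 4 of 14 measured genes of the monoamine, acetylcholine and purine receptor list, with 0 lower and a median log2 ratio of 0.46. Intervals lay wholly above a ratio of 1 for 8 of the 14 and below it for 1, against 1090 and 1565 of 11707 genes tested. Past 2-fold were 1.48% of all genes on the higher and 1.65% on the lower side. Against the other PVH-side nuclei the list had 0 higher and 2 lower of 21, where all genes tested had 0.519% and 2.39%. The 2 were the receptors Htr1d and Drd3, at 3 and 2 UMIs in the GABA neurons.

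Peptide and hormone receptors went both ways. Of 18 peptide receptors, Trhr, the receptor of thyrotropin-releasing hormone, was higher at 15.1 against 6.60 CPM. Npy2r, Calcr and Rxfp1, receptors of neuropeptide Y, calcitonin and relaxin, were lower at 17.0, 16.7 and 6.41 against 50.002, 47.6 and 23.8 CPM. Among 17 hormone receptors, Alk, a receptor tyrosine kinase, was higher at 128 against 40.8 CPM, and Lepr, Ghr and Esr1 were lower as given above. The median log2 ratios of the lists were -0.17 and -0.28. Among all 11710 genes tested, 1.48% were 2-fold or more higher and 1.65% lower.

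Of 19 GABA and glycine receptor genes 1 was higher, Gabrb2, a beta subunit, at 171 against 81.8 CPM, and 1 was lower, Gabre, the epsilon subunit, at 7.37 against 20.99, with a median log2 ratio of 0.26. Of 16 ionotropic glutamate receptor genes only Grin3a was past 2-fold, at 150 against 66.7 CPM. Of 44 channel genes Kcna1 and Kcnn2 were higher, at 14.7 and 172 against 3.77 and 74.8 CPM, and Kcnh8 was lower, at 53.5 against 143. None of the 7 measured genes of GABA uptake and breakdown was past 2-fold. Over all 11710 genes tested, 1.48% were 2-fold or more higher and 1.65% lower. The counts in these lists are small, and no difference of a family as a whole is read from them.

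Of 52 measured genes of cell adhesion and axon guidance, 8 were 2-fold or more higher than on the ARC side and 0 were 2-fold or more lower, with a median log2 ratio of 0.28. Intervals lay wholly above a ratio of 1 for 29 of the 52 and wholly below it for 11. Of all 11707 genes tested without those the rule used, 1090 had intervals wholly above 1 and 1565 wholly below. The shares past 2-fold over all genes were 1.48% higher and 1.65% lower. Genes with many UMIs have narrow intervals, and this list held 52271 UMIs in the GABA neurons. Robo1, a receptor of Slit proteins, was in 469 nuclei at 879 CPM (846 to 912) against 396 (377 to 415). Its ligands Slit2 and Slit3 were at 162 and 143 against 61.6 and 71.5 CPM. Slit3, at a ratio of 2.01, stayed past 2-fold in 3 of 10 alternative settings and came to 1.21 when thinned to 1000 UMIs. The other 5 were Cdh20, Cdh23, Epha7, Ephb1 and Cntnap4. Reln, a secreted protein of neuronal layering, was at 87.8 against 39.6 CPM. Slit2, Slit3 and Ephb1 were higher still in the other PVH-side nuclei, at 245, 197 and 145 CPM.

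Against the other PVH-side nuclei, the question was what else goes with the GABA gate within 1 hashtag. This group is mixed and holds 1608 nuclei with a Sim1 or Slc17a6 UMI. Of 14245 genes tested, 74 (0.519%) were 2-fold or more higher in the GABA neurons and 340 (2.39%) were lower, 2.91% in all, and in 13 (0.0913%) and 62 (0.435%) of them the whole interval lay past 2-fold. Without the genes the rule used the counts were 71 and 338, and the median log2 ratio of all genes was 0.01. With nuclei thinned to 1000 UMIs and the gate applied again, 53 GABA neurons were left, 43 of them among the 569. Members that no longer passed the gate were counted with the other PVH-side nuclei. In that setting 880 genes were higher and 713 lower. A gene at 0 in these 53 nuclei was held at a floor of 3 UMIs, which limits how many can be called lower. No change of balance is therefore read from these counts.

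Beside the gate genes and the Dlx genes, the higher named genes were Meis2, Isl1, Sox2ot, Grik3, Nrxn3, Kcng1, Ano1, Fbxw13 and Gad1os. Nrxn3, a presynaptic adhesion protein, was in 562 of the 569 nuclei at 4458 CPM (4384 to 4533) against 2148 (2125 to 2170). Grik3, a kainate receptor subunit, was in 325 nuclei at 191 against 81.9 CPM (ratio 2.33, 2.11 to 2.57). Kcng1, a modifying potassium channel subunit, and Ano1, a chloride channel, were at 9.93 and 7.69 against 2.41 and 1.85 CPM. The ARC-side GABA neurons had 3419 CPM of Nrxn3, 106 of Grik3 and 6.84 of Ano1, in each case between the other groups.

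Of 37 GABA lineage transcription factors, 10 were 2-fold or more higher than in the other PVH-side nuclei and 2 were lower, with a median log2 ratio of 0.46. Beside Dlx1, Dlx2, Dlx5, Dlx6, Dlx6os1, Meis2 and Isl1, the higher ones included Six3 and Sp9, at 35.9 and 10.6 against 15.7 and 5.25 CPM, both factors of ventral forebrain development. The lower ones were Foxp2, a forkhead factor, at 91.9 against 201 CPM, and Ebf1 at 42.3 against 92.6. Of all genes tested, 0.519% were 2-fold or more higher than in the other PVH-side nuclei and 2.39% lower. Of 9 measured genes listed for the reticular thalamus and zona incerta, which are GABA nuclei of the neighbouring thalamus and subthalamus, 3 were higher, Six3 and Meis2 among them. Those 3 stand in the first list too, and Pvalb, a defining gene of the reticular thalamus, had 0 UMIs.

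Factors of the paraventricular lineage were among the lower genes. Of 7 measured genes of this list that the rule did not use, 0 were higher and 5 lower, with a median log2 ratio of -1.81. Over all genes tested in this comparison, 2.39% were lower. Otp was at 5.45 against 23.0 CPM, Pou3f2 (Brn2), a POU factor of neuroendocrine neurons, at 13.1 against 46.1, and Uncx, a homeobox factor, at 3.52 (1.76 to 6.30) against 33.0 (30.3 to 35.9). Sim2 and Nhlh2 were at 2.56 and 1.60 against 9.64 and 3.27 CPM. These genes are known from Sim1 neurons, and the absence of Sim1 UMIs was a term of the rule. Ebf3, a helix-loop-helix factor, was at 4.80 against 41.3 CPM, and Lhx9, a LIM homeobox factor, had 0 against 101 UMIs, at least 6.49-fold lower. Only 3 genes of the paraventricular list were measured against the ARC-side GABA neurons, with a median log2 ratio of 0.43. In that comparison Pou3f2 was 2.93 times higher and Otp, which also stands in the arcuate identity list, was lower. Over all genes tested there, 1.48% were 2-fold or more higher and 1.65% lower.

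Other lower genes had varied roles. Ranked first after the genes the rule used, F13a1, which encodes a subunit of coagulation factor XIII, was at 3.52 CPM (1.76 to 6.30) against 38.9 (35.9 to 42.03), 11.0-fold lower (6.12 to 22.2). Nrn1, a small protein that promotes neurite growth, was at 6.41 against 39.2 CPM and Tns1, a focal adhesion protein, at 8.33 against 50.7. Plpp4 and Adamts2 were at 7.37 and 6.41 against 46.8 and 29.2 CPM, and Myocd, Dnah8, Rufy4, Ly75 and Egfr had 4, 6, 3, 1 and 2 UMIs in the GABA neurons. The rule kept nuclei with a Sim1 or Slc17a6 UMI out of the GABA neurons. Such nuclei held 495 of the 629 F13a1 UMIs of the other PVH-side nuclei, 480 of 635 for Nrn1 and 654 of 820 for Tns1. They held 9165817 of the 16183795 UMIs of all genes there. How far their exclusion accounts for the low levels was not tested. Nos1, the neuronal nitric oxide synthase, was at 21.1 against 44.1 CPM and Esr2, the oestrogen receptor beta, at 3.84 against 15.3. Cacna2d1, a calcium channel subunit, was at 187 against 509 CPM. Cdh9, Sema3a, Sema3c, Ntng2 and Cntnap5b were the 5 lower of 55 adhesion and guidance genes, with 2 higher, Cdh23 and Ntn1. The shares over all genes tested were 2.39% lower and 0.519% higher.

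No neuropeptide gene was 2-fold or more higher in these neurons than in either group. Only 1.48% of all genes tested were so against the ARC side and 0.519% against the other PVH-side nuclei. Of 21 neuropeptide and granule genes measured against the ARC side, 0 were higher and 1 lower (Nts, neurotensin, at 13 UMIs), and of 31 measured against the other PVH-side nuclei, 0 were higher and 2 lower (Pdyn and Crh, at 4 and 6 UMIs). Oxt, oxytocin, had a UMI in 91.9% of the GABA neurons at 528 CPM, and the non-neuronal nuclei had 92.2% and 991 CPM at a median of 3026 UMIs. Avp, vasopressin, was at 286 against 479 CPM and Agrp at 142 against 182. These levels were below those of the non-neuronal nuclei and are not taken as a sign that the GABA neurons make the peptides. Where these UMIs came from was not tested. Sst, somatostatin, was in 37.3% of the GABA neurons at 84.9 CPM, against 26.9% and 101 CPM. Gal, galanin, was at 62.8 against 70.0 CPM, and Penk, enkephalin, at 17.9 against 10.9.

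**Figure D4:**
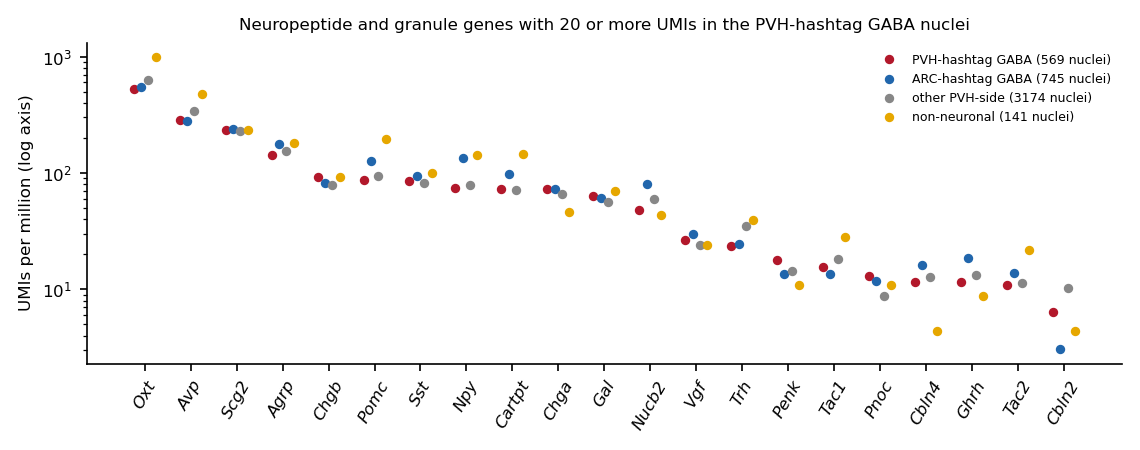
Levels (UMIs per 1000000 UMIs, log axis) of the 21 neuropeptide and granule genes with 20 or more UMIs in the PVH-hashtag GABA neurons (red), beside the ARC-hashtag GABA neurons (blue), other PVH-side nuclei (grey) and 141 nuclei with non-neuronal markers (yellow), drawn as points without intervals. For Oxt, Avp, Agrp, Pomc, Sst and Gal the yellow point lies above the red one, at 991 against 528 CPM for Oxt.

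The GABA neurons were not uniform. Leiden clustering of the 569 nuclei alone gave 8 clusters of 24 to 109 nuclei, and since the clusters were made from these genes their leading genes are a description. The clusters are left unnamed and called by leading genes. Their median depths lay between 4250.5 and 5775 UMIs and their median hashtag ratios between 0.351 and 0.389, so that no cluster was set apart by its hashtag ratio. All held Gad2, at 262 to 368 CPM.

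Cluster 1, with 109 nuclei, had the lowest leading folds. Its leading genes were Ndst4, Epb41l4a, Pcsk5, Pde1c and Il1rap, at 3.17 to 3.57 times the other members. Cluster 2, with 104 nuclei, was led by Nr4a2, a nuclear receptor also induced by activity, at 60.3 against 3.15 CPM in the other members, and by Ano3 and the muscarinic receptor Chrm3, at 203 and 430 against 28.7 and 113 CPM. It also had the most Zic1, at 62.0 CPM. Cluster 3, with 86 nuclei, was led by Lhx1, a LIM homeobox factor, at 110 against 6.27 CPM, by its antisense neighbour Lhx1os and by Npy2r at 78.1 against 7.74 CPM. Isl1 was at 9.77 CPM in cluster 3, its lowest level among the 8.

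Cluster 4, with 73 nuclei, was led by 3 nuclear factor I genes. Nfix was at 131 against 9.14 CPM, Nfia at 327 against 26.0 and Nfib at 417 against 34.0, and Nfib was detected in 54 of the 73 nuclei. Reln was at 412 CPM (351 to 481) in this cluster against 41.7 in the rest, which was 58.4% of all Reln UMIs of the GABA neurons. Nr2f2 was spread over the clusters, from 14.4 CPM in cluster 8 to 126 in cluster 6, and the Ebf1 UMIs lay mostly in clusters 1 and 4, at 97.4 and 131 CPM.

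Cluster 5, also of 73 nuclei, held most of the Meis2. Its level was 635 CPM against 15.1 in the rest, 86.3% of the Meis2 UMIs of the GABA neurons came from it, and 45 of its 73 nuclei had a UMI. Sema3d, Zeb2 and Hs3st4 were among the genes that led beside it, at 83.6, 197 and 866 CPM. Htr2c, which was at 278 CPM or more in every other cluster, was at 86.1 in this one. The high Meis2 of the group as a whole was therefore carried by 1 of the 8 clusters, with a smaller part in cluster 8 at 152 CPM.

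Cluster 6, with 65 nuclei, was led by Lef1 at 98.9 against 6.10 CPM and by Foxp2 at 422 against 52.4. It had the highest Gal, at 186 CPM (142 to 238) against 48.1 in the other members, which was above the 70.0 CPM of the non-neuronal nuclei. Cluster 7, with 35 nuclei, was led by Onecut3 and Onecut2, cut homeobox factors, at 64.3 and 179 against 0.689 and 11.4 CPM, by Pmfbp1, and by Nostrin at 147 against 3.44 CPM. It held 76.2% of the Nostrin UMIs. Cluster 8, with 24 nuclei, was led by Pantr1 on 7 UMIs, Piezo2, a mechanically gated channel, at 152 against 6.03 CPM, Pantr2, Pth2r and Adgra3. Dlx6os1 was at 433 CPM in cluster 8, 340 in cluster 4 and 327 in cluster 6, and at 74.2 and 75.7 in clusters 1 and 2.

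**Figure D5:**
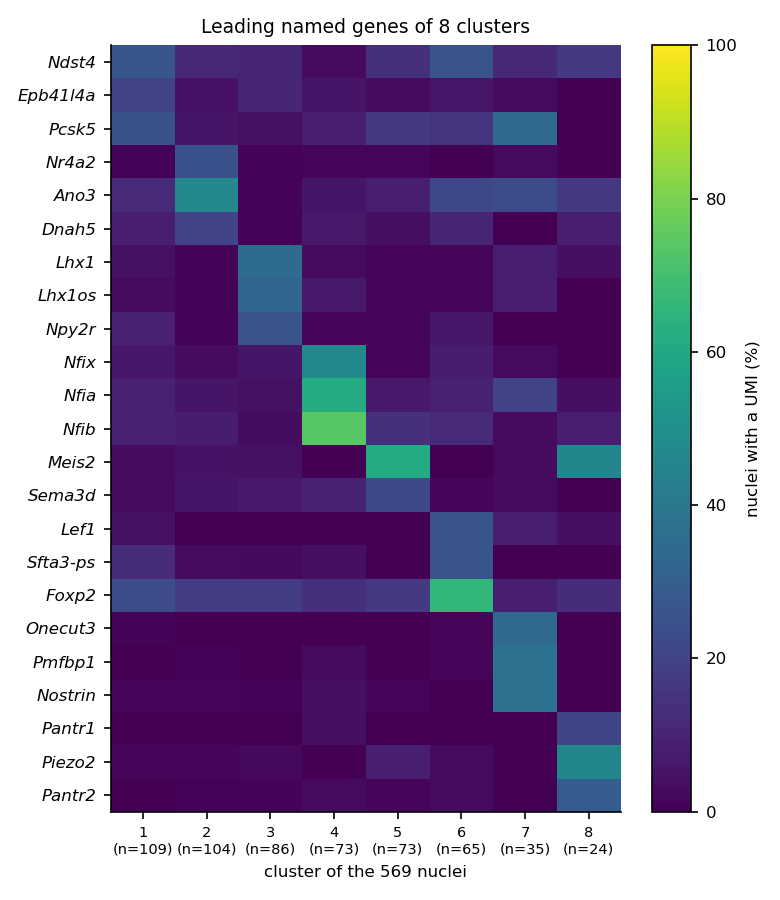
Share of nuclei with a UMI (colour, 0 to 100%) of genes leading each cluster (rows) in the 8 clusters of the 569 GABA neurons (columns, with the number of nuclei). Among the genes drawn, the brightest cells are Nfib in cluster 4, Foxp2 in cluster 6 and Meis2 and Nfia in clusters 5 and 4, and Meis2 also has a share in cluster 8. The rows were chosen from the same counts as the clusters.

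The number of clusters moved with the method. A shared-neighbour graph gave 5 clusters in place of 8, and a resolution of 0.3 gave 5. Under the shared-neighbour graph 75.3% to 100% of each of the 8 clusters stayed together in 1 cluster, a share that merging alone can raise. The adjusted Rand index, which is 1 for identical clusterings, was 0.515 with this graph and 0.433 at a resolution of 0.3. It was 0.619 with 1000 variable genes, 0.838 with 20 components and 0.872 at a resolution of 1.0. At that last resolution 55.8% of cluster 3 stayed together. The 35 nuclei of the Onecut cluster stayed in 1 cluster under the shared-neighbour graph and at resolutions of 0.3 and 1.0, which can hold other nuclei too. With 20 components 91.4% of them stayed together and with 1000 variable genes 82.9%.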

How the data were processed

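NeuN-sorted nuclei of pooled mice were sequenced as 1 gene expression library with its hashtag library. The deposited values are counts of UMIs for each gene and hashtag in 11409 barcodes, which the authors had not normalized. The study's methods name Cell Ranger v.5.0 and the matrix header Cell Ranger 4.0.0, and the submitters' processing notes name mm10 and Seurat v.4. The sources used here do not say whether intronic reads were counted.

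Nuclei were kept where the number of genes lay above 800 and below 5000, UMIs did not exceed 12000 and the 13 mitochondrial genes took no more than 1% of UMIs. The members and the gene lists were chosen with earlier results of these data known. UMIs were summed per group in Python 3.11.15 (numpy 2.4.6, pandas 2.3.3), and exact 95% intervals of levels, shares and ratios were computed with scipy 1.17.1. A gene was called past 2-fold on the ratio of summed CPM when both groups together held at least 50 UMIs. For a group at 0, a floor of 3 UMIs over the group gave the bound. A bound that fell on the far side of a ratio of 1 was given no direction, a term added once the alternatives had been seen. The genes named were, per comparison and direction, the 15 whose interval bound nearest to 1 was farthest from 1, among genes with at least 20 UMIs in at least 10 nuclei of the higher group and leaving out unnamed gene models. Named too were genes of the lists and the 5 leading genes per cluster found in at least 20% of its nuclei. A few genes that met these rules are not reported here. Nuclei taken as non-neuronal had a UMI of at most 1 of Snap25, Syt1, Elavl4 and Rbfox3 and of at least 2 genes of a non-neuronal marker list. The genes shown by gate step and by hashtag step were picked after their values were seen.

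Clusters were made with scanpy 1.11.5 and leidenalg 0.10.2 (scale factor 10000, 2000 variable genes by the seurat flavour, 30 components, 20 neighbours, resolution 0.55). The plan named no neighbour graph. The scanpy graph was run first and the shared-neighbour graph second, and the first was kept after both had been seen. HTODemux was run in R 4.3.3 with Seurat 5.3.0 at a positive quantile of 0.8. Doublets were handled by the hashtag limits alone. The comparison step was tested on simulated counts. Gene positions are from GENCODE M21 on GRCm38, which held 32158 of the 32285 gene identifiers (99.6%). The alternatives were other hashtag rules, gene terms, filters, depths, weights, UMI minimums and cluster settings.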

Additional observations from a re-analysis of the deposited data

How the results depend on the processing

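No paired analysis was possible because all nuclei are 1 pooled sample without replicates. The 569 nuclei became 76 with stricter hashtag ratios (at most 0.25 and at least 2), 105 with all 3 gate genes, 1413 with at least 1, and 53 with nuclei thinned to 1000 UMIs, and lay between 491 and 689 under HTODemux, the hashtag depth, the Sim1 and Slc17a6 terms and the quality filters. The 366 genes past 2-fold against the ARC side became 223 with stricter ratios, 188 with all 3 gate genes, 17 when thinned, 770 at a minimum of 20 UMIs and 140 at 200. HTODemux gave 402. The 414 genes against the other PVH-side nuclei became 1258 with all 3 gate genes, 1593 when thinned (880 higher and 713 lower, 55.2% higher against 17.9% in the unthinned counts), 945 at 20 UMIs and 104 at 200. The 8 clusters became 5 with the shared-neighbour graph, which was chosen after seeing the data, and 5 at a resolution of 0.3. With other gene terms or thinning, members that failed the gate were counted with the other PVH-side nuclei, so that comparison changed on both sides. Thinning leaves 53 nuclei of 1000 UMIs each, 43 of them among the 569, so that 1 UMI is a large step. The floor of 3 UMIs then limits how many genes can be called lower. Thinning turned the direction of 4 named ratios. Against the ARC side Dlx6os1 came to 0.906 on 9 and 12 UMIs, and Reln and Ephb1 each to 0.906 on 6 and 8 UMIs. Sema3a against the other PVH-side nuclei came to 2.86 on 3 and 73 UMIs. Of all the ratios and shares recomputed for single genes, those 4 included, the following stayed within the main interval. They were 497 of 608 ratios against the ARC side, 434 of 535 against the other PVH-side nuclei and 40 of 54 shares.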

Other observations

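Pairs of genes seen in the same nuclei gave values that the comparisons do not use. They are descriptions over the 569 nuclei, which share 1 library, and the genes were picked after their values were seen. Of the 69 nuclei with Meis2, 46.4% had a UMI of Zeb2, against 12.3% of all 569. For Isl1 the shares were 47.8% and 28.6%. Nfib was found in 2 of the nuclei with Meis2 and Nfix in 0, against 96 and 57 of all 569. Nr2f2 was found in 21.7% of the nuclei with Meis2 and in 30.1% of all.

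Clusters 5 and 7 held the most Mbp, myelin basic protein of oligodendrocytes, at 123 and 142 CPM against 47.9 and 51.3 in the other members. The highest count of Mbp in a single nucleus was 37 UMIs. Esr1 was spread between 18.0 CPM in cluster 6 and 78.9 in cluster 1.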
